A study of Mus musculus with 8 samples.

Results

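Iron and heme handling was followed through 10 genes in tumor-associated macrophages (TAMs). They encode heme oxygenase 1 (Hmox1), both biliverdin reductases (Blvra and Blvrb), the ferritin subunits (Fth1 and Ftl1), the iron exporter ferroportin (Slc40a1), the transferrin receptor (Tfrc), its ligand transferrin (Trf) and the iron transporters NRAMP1 (Slc11a1) and DMT1 (Slc11a2). They were chosen by gene name for their role, with earlier results of these data known. Each was found among the 26939 genes of the joined count table. All 10 passed the filter on low counts in every comparison. TAMs were sorted from EO771 tumors, a mouse breast cancer line grown in the mammary fat pad of female mice of 8 to 14 weeks, at day 21, gated as live cells positive for CD45, CD11b and F4/80 and negative for Gr-1. WT mice were set beside Unc93b1 3d/3d mice, whose mutated UNC93B1 leaves them without functional endosomal Toll-like receptors. Each genotype had 2 control samples and 2 samples from mice given 100 µg per dose of αMARCO, a rat IgG1 antibody (clone ED31) against the scavenger receptor MARCO, from day 3 to day 12, so that 4 groups of 2 bulk RNA-seq libraries were available. The study compared them to ask how TAMs differ without endosomal receptors and what αMARCO does to them in either genotype.

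Several features limit these groups as models. Each control sample was a pool of TAMs from 3 mice, the number of mice behind an αMARCO sample was not given, and p-values measure only the spread between these samples. The sample titles call the control mice untreated, their library names read PBS and the treatment protocol names an isotype antibody, so the injection that they received is not settled. The genotype label of the second Unc93b1 3d/3d control sample reads Unc93b1 3d/4d, while its title reads Unc93b1 3d/3d. The mutation is carried by every cell of the mouse, not only by macrophages.

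Macrophages take up aged red blood cells, hemoglobin and heme, and heme oxygenase opens the heme ring to release iron, carbon monoxide and biliverdin, which the biliverdin reductases turn into bilirubin. The freed iron is stored in ferritin or leaves the cell through ferroportin, the only known cellular iron exporter in vertebrates. Iron bound to transferrin enters through the transferrin receptor and crosses the endosomal membrane through DMT1, while NRAMP1 moves divalent metals out of the phagosome and is known for its part in resistance to intracellular microbes.

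Several of these mRNAs are known to carry an iron-responsive element (IRE), a hairpin that iron regulatory proteins bind when iron is scarce. In the 5′ UTR such a hairpin holds back translation, and in the 3′ UTR of the transferrin receptor mRNA it protects the message from decay, so that part of this control acts on protein and is not seen in mRNA counts. A search of protein-coding transcripts (GENCODE M21, GRCm38, transcript strand) for a C, 5 bases, the loop CAGTGN and 5 bases that pair with the first 5, GU pairs allowed, found 1 site each in Fth1 (chr19:9982732-9982760, + strand), Ftl1 (chr7:45459779-45459807, - strand) and Slc40a1 (chr1:45925465-45925493, - strand), all in the 5′ UTR. Tfrc had 4 sites in its 3′ UTR (chr16, + strand), at 32631219 to 32631247, 32631598 to 32631626, 32631663 to 32631691 and 32631710 to 32631738. The sites are shown because this pattern was matched in these 4 genes and in none of the other members. Capitals mark the unpaired C and the 6 bases of the loop.
Fth1: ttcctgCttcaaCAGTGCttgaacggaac
Ftl1: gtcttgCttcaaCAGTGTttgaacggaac
Slc40a1: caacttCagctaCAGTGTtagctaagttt
Tfrc site 1: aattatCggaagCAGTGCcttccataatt
Tfrc site 2: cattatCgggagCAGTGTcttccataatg
Tfrc site 3: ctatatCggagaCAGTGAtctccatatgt
Tfrc site 4: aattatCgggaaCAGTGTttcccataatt
The pattern was found in 294 of 21901 protein-coding genes (1.34%), in 4 of the 10 members and in Alas2 and Keap1 among 66 other iron and heme genes. No match in the other 6 members says only that these letters are not in the transcripts searched. The pattern allows no bulge in the paired bases and no other loop, so a hairpin of another form would be missed. A match is a description of the sequence and not a measure of binding.

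The libraries held 15182618 to 26411936 counts, at which 3 counts correspond to 0.114 to 0.198 CPM (counts scaled to a common library total), a floor for counting error only that every member exceeded in every library. Unc93b1 mRNA was at 849 and 966 CPM (control) and 750 and 708 CPM (αMARCO) in WT TAMs, and at 540 and 660 CPM (control) and 558 and 641 CPM (αMARCO) in mutant TAMs, and since the 3d allele is a missense mutation this level does not check the genotype labels. None of 10 macrophage markers was at or under the floor in any library, and their summed level was 10410 to 14430 CPM. Red blood cell and erythroblast markers summed to 0.0527 to 5.72 CPM, with hemoglobin Hba-a1 at 0 to 1.57 CPM. Markers of other cells differed between groups: 12 T cell genes summed to 134 and 151 CPM in WT control and to 9.80 to 27.5 CPM elsewhere, and 8 dendritic cell genes to 810 and 410 CPM in WT control and to 65.7 to 124 CPM elsewhere. The 5 endothelial genes summed to 191 to 289 CPM in WT and to 86.1 to 124 CPM in mutant libraries. Of them Pecam1 was at 106 to 203 CPM in WT and at 24.1 to 28.9 CPM in mutant libraries. Kdr (72.1 to 82.7 against 56.5 to 81.5 CPM) and Cdh5 (4.32 to 9.06 against 2.72 to 12.8 CPM) overlapped between the genotypes. Tie1 reached at most 1.73 CPM and Emcn 0.222 CPM, so the difference in the endothelial sum lay in Pecam1. The 6 B cell genes, mainly Ighm and Cd79b, summed to 73.1 to 156 CPM in WT and to 26.15 to 51.8 CPM in mutant libraries. Fewer cells of a type and less RNA per cell cannot be told apart in such samples. Replicate 2 of Unc93b1 3d/3d αMARCO stood apart, at a distance of 132 from its own replicate on the log2 CPM scale against 56.1 to 74.6 in the other groups.

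Compared per gene length as RPKM (CPM per kilobase of the gene length in the deposited tables), the members spanned from among the most abundant mRNAs of these cells to low levels. Fth1 ranked 3 of 26939 genes with a mean of 6082 RPKM over the 8 libraries, and Ftl1 ranked 16 with 1832 RPKM. Hmox1 followed at rank 63 with 586 RPKM and Slc11a1 at rank 500 with 104 RPKM. The biliverdin reductases, which act downstream of heme oxygenase, had 40.4 RPKM (Blvrb) and 29.4 RPKM (Blvra). Slc11a2 had 10.9, Tfrc 5.79, Slc40a1 4.43 and Trf 2.54 RPKM, so the mRNAs of the storage proteins stood far above those of the gates through which iron enters and leaves. Blvrb lay above Blvra in every library, with a per-length ratio of 1.02 to 1.61. By these lengths Tfrc lay above Slc40a1 in WT control (7.09 and 7.05 against 3.17 and 5.41 RPKM) and below it in the mutant controls (5.20 and 4.64 against 6.70 and 6.78 RPKM). This order depends on the length used. It was 9000 bases for Slc40a1 and 6185 for Tfrc, while their transcripts with the printed sites had 3370 and 4890 bases. In CPM Slc40a1 exceeded Tfrc in WT control replicate 2 as well (48.7 against 43.6 CPM).

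**Figure D1:**
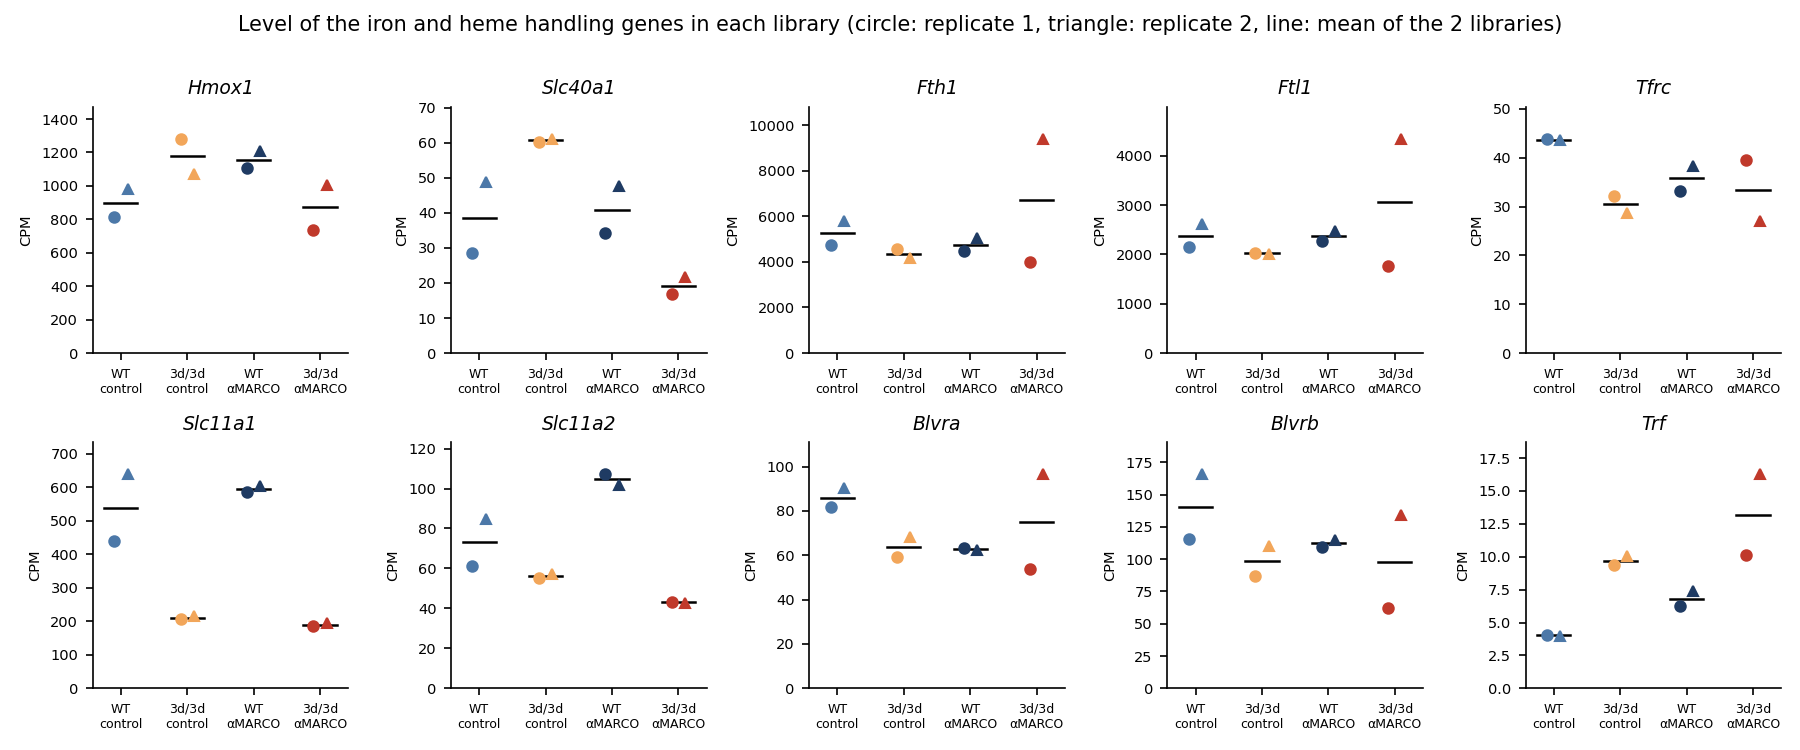
Level of each of the 10 genes in each library in CPM (y axis, from 0), with the 4 groups on the x axis, circles for replicate 1, triangles for replicate 2 and a line at the mean of the 2 libraries. Slc11a1 lies at 440 to 639 CPM in WT TAMs and at 186 to 215 CPM in Unc93b1 3d/3d TAMs, and Slc40a1 is lowest in Unc93b1 3d/3d αMARCO TAMs.

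In control TAMs the genotypes differed most in the phagosomal metal transporter and in transferrin. Relative to Unc93b1 3d/3d TAMs, WT TAMs had 2.53-fold more Slc11a1 and 1.42-fold more Tfrc mRNA, while Trf was 2.44-fold lower. These were the 3 members called by edgeR's quasi-likelihood test with Benjamini-Hochberg adjustment, where called means an adjusted P up to 0.05 and a log2 fold change of 0.5 or more in size. Across all 15600 tested genes, 6.58% were called higher in WT and 6.4% lower, against 2 and 1 of the 10 members, and the median log2 fold change was 0.31 over the members and -0.004 over all tested genes.

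Slc11a1 had 440 and 639 CPM in WT control and 207 and 215 CPM in Unc93b1 3d/3d control TAMs (ENSMUSG00000026177, chr1:74375195-74386062, + strand). The WT samples were both above both mutant samples, and the WT samples differed more from each other than the mutant samples did. Its log2 fold change of WT over Unc93b1 3d/3d was 1.34 (SE 0.17, adjusted P = 0.00315 from edgeR). The call was lost without Unc93b1 3d/3d control replicate 1 (log2 fold change 1.31, adjusted P = 0.0569). Slc11a2, the other member of this transporter family, had 61.3 and 84.9 CPM against 55.4 and 57.2 CPM, a difference that did not pass (log2 fold change 0.36, SE 0.15, adjusted P = 0.13 from edgeR). Its log2 fold change was 0.587 without WT control replicate 1 and 0.117 without WT control replicate 2, in fits with a single WT control library. The per-length ratio of Slc11a1 to Slc11a2 was accordingly 12.3 and 12.9 in WT control and 6.40 and 6.45 in Unc93b1 3d/3d control TAMs.

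Tfrc, through which transferrin-bound iron is taken up, had 43.8 and 43.6 CPM in WT control and 32.2 and 28.7 CPM in Unc93b1 3d/3d control TAMs (ENSMUSG00000022797, chr16:32608920-32632794, + strand). Its groups did not overlap, and its log2 fold change of 0.51 (SE 0.11, adjusted P = 0.016 from edgeR) lay just over the threshold. It passed neither without Unc93b1 3d/3d control replicate 2 (0.42, adjusted P = 0.0651) nor in a model of all 8 libraries (adjusted P = 0.262). Its ligand went the other way. Trf had 4.06 and 3.99 CPM in WT control and 9.36 and 10.1 CPM in Unc93b1 3d/3d control TAMs, with a log2 fold change of -1.29 (SE 0.23, adjusted P = 0.00573 from edgeR). Trf missed the threshold in the model of all 8 libraries (adjusted P = 0.0665), and all 3 called members passed in that model without Unc93b1 3d/3d αMARCO replicate 2. Trf had the lowest level of the members, and transferrin of the blood comes mainly from the liver (ENSMUSG00000032554, chr9:103204001-103230444, - strand).

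The genes of heme breakdown, Hmox1 (chr8:75093621-75100589), Blvra (chr2:127070665-127097084) and Blvrb (chr7:27447978-27466144, all on the + strand), did not share a direction. Hmox1, the inducible enzyme, had 817 and 984 CPM in WT control and 1280 and 1072 CPM in Unc93b1 3d/3d control TAMs, lower in both WT samples (log2 fold change -0.40, SE 0.13, adjusted P = 0.0624 from edgeR). It passed the thresholds in a fit corrected for gene length (log2 fold change -0.57, adjusted P = 0.0309 from edgeR). Without WT control replicate 2 or Unc93b1 3d/3d control replicate 2 its log2 fold change was -0.532, with a single library in 1 group. Blvra had 81.8 and 90.2 CPM in WT against 59.2 and 68.4 CPM, and its adjusted P of 0.0261 from edgeR came with a log2 fold change of 0.41, under the fold threshold. Blvrb had 115 and 166 CPM in WT against 86.9 and 110 CPM (log2 fold change 0.50, SE 0.19, adjusted P = 0.132 from edgeR). Both reductases were thus at higher values, and the oxygenase at lower values, in the WT samples, with none of the 3 called by edgeR in the 4 libraries. Blvrb was called by DESeq2 (0.502, adjusted P = 0.0308) and by edgeR without the filter on low counts (adjusted P = 9.7e-05). Its log2 fold change was 0.744 without WT control replicate 1, and that of Blvra was 0.514 without Unc93b1 3d/3d control replicate 2.

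The genes of storage, Fth1 (chr19:9982703-9985092, + strand) and Ftl1 (chr7:45457944-45459884, - strand), and of export did not pass. Fth1 had 4728 and 5775 CPM in WT control and 4554 and 4177 CPM in Unc93b1 3d/3d control TAMs, and Ftl1 had 2142 and 2610 CPM against 2025 and 2016 CPM. Their log2 fold changes were 0.25 (SE 0.13, adjusted P = 0.214) and 0.22 (SE 0.12, adjusted P = 0.245 from edgeR). The subunits assemble into one shell, and their per-length ratio of Fth1 to Ftl1 stayed within 3.06 and 3.49 over all 8 libraries. Slc40a1 had 28.6 and 48.7 CPM in WT against 60.3 and 61.0 CPM in the mutant, with a log2 fold change of -0.67 (SE 0.25, adjusted P = 0.135 from edgeR). The Slc40a1 value rested on a WT pair that differed widely within itself, and DESeq2 called it (adjusted P = 0.0174), as did edgeR without the filter on low counts (adjusted P = 8.12e-06). Its log2 fold change was -0.322 without WT control replicate 1 and -1.093 without WT control replicate 2. These fits rest on a single WT control library, so no call is read from them. In this comparison the libraries of the genotypes did not overlap for any of the 10 members, called or not, as for 63.1% of all tested genes. Pecam1 and the T cell, dendritic cell and B cell marker sums given above moved with these differences, and their part in them was not tested.

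**Figure D2:**
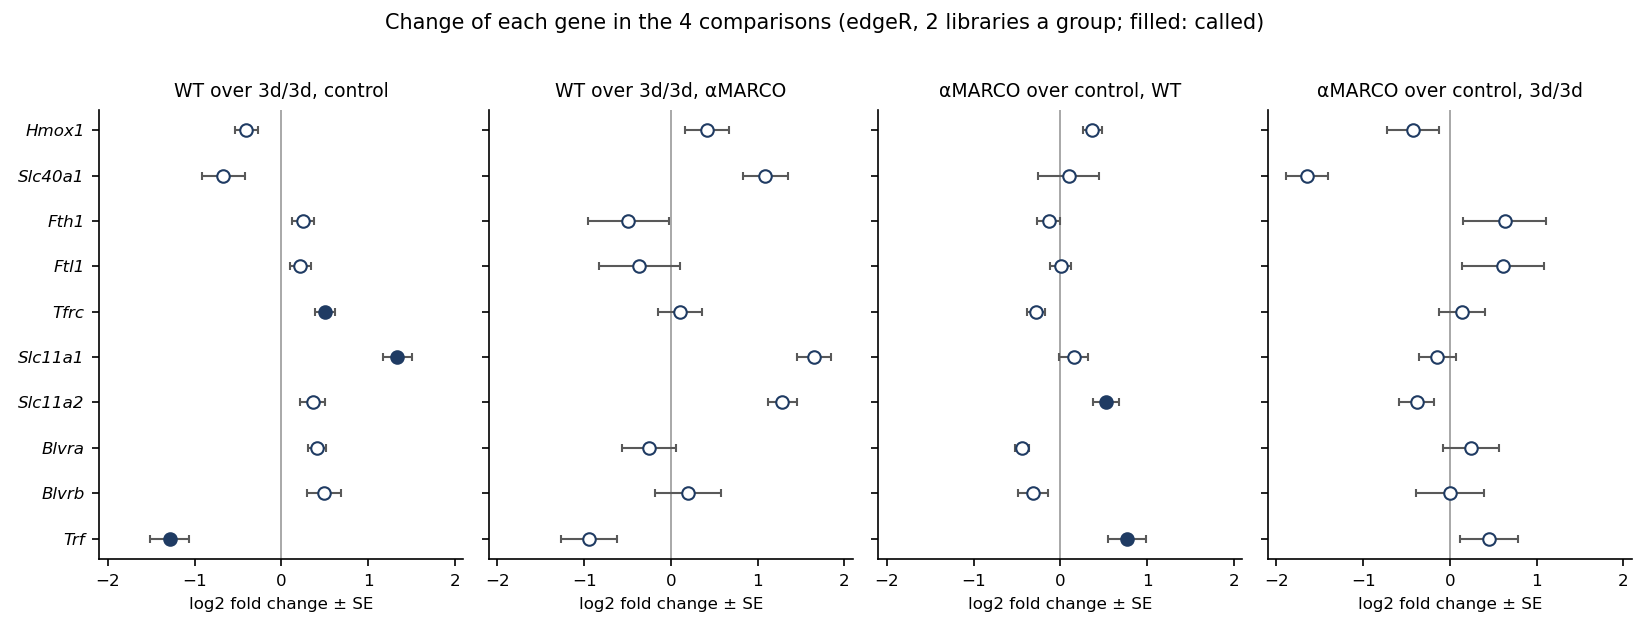
Log2 fold change of each of the 10 genes (x axis) with its standard error as the bar, in the 4 comparisons between pairs of groups (edgeR, 2 libraries a group), with filled points for called genes. Slc11a1 lies at 1.34 and 1.66 in the genotype comparisons, and Slc40a1 at -1.65 after αMARCO in Unc93b1 3d/3d TAMs.

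In WT TAMs, αMARCO was accompanied by more mRNA of the divalent metal transporter DMT1 and of transferrin. Slc11a2 was 1.44-fold higher and Trf 1.70-fold higher after αMARCO, and these were the 2 members called. Trf was also called between the control genotypes, and both of its calls rest on the same WT control libraries. Of all 15630 genes tested, 8.91% were called higher and 11.8% lower, against 2 and 0 members. The median log2 fold change was 0.05 over the members and -0.01 over all tested genes.

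Slc11a2 had 61.3 and 84.9 CPM in WT control and 107 and 102 CPM in WT αMARCO TAMs (ENSMUSG00000023030, chr15:100387898-100425072, - strand). Both treated samples lay above both control samples (log2 fold change 0.53, SE 0.15, adjusted P = 0.0325 from edgeR). Trf had 4.06 and 3.99 CPM against 6.22 and 7.41 CPM, again without overlap (log2 fold change 0.77, SE 0.22, adjusted P = 0.0231 from edgeR). Both calls were lost when either WT αMARCO library was left out, with adjusted P of 0.153 and 0.113 for Slc11a2 and 0.0723 and 0.201 for Trf from edgeR, and in the model of all 8 libraries. That of Slc11a2 was also lost without WT control replicate 1 (log2 fold change 0.30) and after correction for gene length (0.44, adjusted P = 0.054), and that of Trf with DESeq2 (adjusted P = 0.078).

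Heme breakdown showed values in opposite directions, none called by edgeR in the 4 libraries. Hmox1 had 817 and 984 CPM in WT control and 1107 and 1208 CPM in WT αMARCO TAMs, higher in both treated samples (log2 fold change 0.37, SE 0.11, adjusted P = 0.0278 from edgeR). After correction for gene length it was called at 0.57 on the log2 scale (adjusted P = 0.00584 from edgeR). Without WT control replicate 2 its log2 fold change was 0.505. Blvra had 81.8 and 90.2 CPM against 63.3 and 62.6 CPM (log2 fold change -0.44, SE 0.08, adjusted P = 0.00329 from edgeR). The treated samples lay within 1 CPM of each other for Blvra, and both below the controls. Blvrb had 115 and 166 CPM against 110 and 115 CPM (log2 fold change -0.32, adjusted P = 0.205 from edgeR). Without WT control replicate 1 the log2 fold changes were -0.517 for Blvra and -0.56 for Blvrb. The fits without a WT control library rest on a single one, so no call is read from them.

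For storage, export and phagosomal transport, αMARCO and control WT samples overlapped. Fth1 had 4485 and 5030 CPM after αMARCO (log2 fold change -0.14, adjusted P = 0.45), Ftl1 2267 and 2467 CPM (0.00, adjusted P = 0.989) and Slc40a1 34.2 and 47.6 CPM (0.10, adjusted P = 0.862, all from edgeR). Slc11a1 had 588 and 605 CPM after αMARCO, within the range of the control samples (log2 fold change 0.15, SE 0.17, adjusted P = 0.519 from edgeR). Tfrc had 33.2 and 38.4 CPM, below both control samples, with a log2 fold change of -0.28 (SE 0.10, adjusted P = 0.054 from edgeR). The libraries of these groups did not overlap for 6 of the 10 members, against 70.9% of all tested genes. The T cell, dendritic cell and cell cycle markers were lower after αMARCO in WT, with all 12 T cell genes, 4 of 8 dendritic cell genes and 10 of 12 cell cycle genes called, and their part in the values of the members was not tested.

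In Unc93b1 3d/3d TAMs no member was called after αMARCO, and the iron exporter had the largest log2 fold change in size among them. Slc40a1 had 60.3 and 61.0 CPM in control and 16.9 and 21.6 CPM in αMARCO TAMs, 3.13-fold lower, with a log2 fold change of -1.65 (SE 0.24) and an unadjusted p of 0.00043 (ENSMUSG00000025993, chr1:45908068-45926523, - strand). It was nevertheless not called, with an adjusted P of 0.823 from edgeR. In that test 0 of 15428 genes were called higher and 0 lower (0%), while 744 genes had an unadjusted p of at most 0.05, and DESeq2 called 52 genes.

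The αMARCO libraries of this genotype differed from each other by gene length. Replicate 2 exceeded replicate 1 in short genes and fell behind in long genes, with a median log2 ratio of 0.69 in the shortest quintile of genes (57 to 2506 bases) and -0.49 in the longest quintile (7743 to 123179 bases). In the other groups these medians lay between -0.04 and 0.07. The part of this trend in the values of single genes was not tested beyond the correction for gene length.

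**Figure D3:**
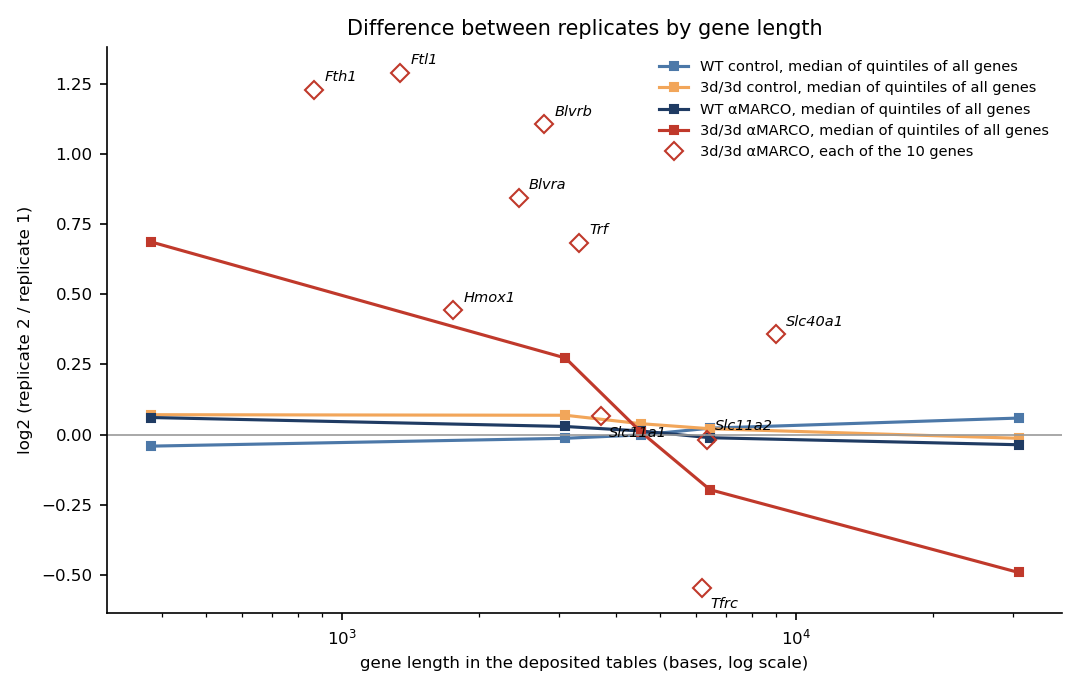
Log2 ratio of replicate 2 to replicate 1 (y axis) against gene length in bases (x axis, log scale), with lines for the median of each quintile of all genes in the 4 groups, drawn at the geometric mean of its shortest and longest gene, and diamonds for the 10 genes in Unc93b1 3d/3d αMARCO. The line of that group runs from 0.69 to -0.49, while Fth1 lies at 1.23 and Ftl1 at 1.29.

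Slc40a1, the longest member (9000 bases), was low in both of these libraries. With replicate 1 left out its log2 fold change was -1.47, and with replicate 2 left out it was -1.84. In these fits a lone αMARCO library is assumed to vary like the controls, so no call is read from them. DESeq2 on all 4 libraries gave an adjusted P of 0.000517. With the correction for gene length the log2 fold change was -1.46 (adjusted P = 0.467 from edgeR), also not called.

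Ferritin, in contrast, had no value that both libraries shared. Fth1 (866 bases) had 4005 CPM in replicate 1 and 9385 CPM in replicate 2 of Unc93b1 3d/3d αMARCO, against 4554 and 4177 CPM in control TAMs, and Ftl1 (1340 bases) had 1775 and 4338 CPM against 2025 and 2016 CPM. Replicate 1 thus lay below both control samples and replicate 2 over 2-fold above them. The fitted log2 fold changes of 0.63 for Fth1 (SE 0.47, adjusted P = 0.823) and 0.61 for Ftl1 (SE 0.47, adjusted P = 0.823 from edgeR) became 1.119 and 1.117 without replicate 1, and -0.12 and -0.19 without replicate 2. After correction for gene length they were 0.28 and 0.27. Reads of both subunits made up 1.24% of replicate 2 and 0.594% to 0.83% of the other 7 libraries. Ferritin is known for many processed pseudogenes, and the 4 named ones in the table made up 1.75% to 2.39% of the reads of these pseudogenes and both genes together, nearly all on Ftl1-ps1.

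The remaining members took different positions against the controls. Hmox1 had 739 and 1004 CPM after αMARCO, both below the control values of 1280 and 1072 CPM (log2 fold change -0.42, SE 0.30, adjusted P = 0.823 from edgeR). Blvra, with 53.8 and 96.5 CPM, and Blvrb, with 62.3 and 134 CPM, had 1 library below and 1 above both controls. Trf had 10.1 and 16.3 CPM against 9.36 and 10.1 CPM, without overlap. Slc11a1 had 186 and 194 CPM against 207 and 215 CPM, and Slc11a2 had 43.3 and 42.7 CPM against 55.4 and 57.2 CPM. In both of these transporters the treated pair agreed closely and lay below the control pair, with log2 fold changes of -0.14 (SE 0.21, adjusted P = 0.871) and -0.38 (SE 0.20, adjusted P = 0.823 from edgeR). Tfrc, at 39.6 and 27.2 CPM, lay above both controls in replicate 1 and below both in replicate 2. The αMARCO and control libraries did not overlap for 5 of the 10 members (Hmox1, Slc40a1, Slc11a1, Slc11a2 and Trf), against 38.9% of all tested genes.

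Between the genotypes under αMARCO, both NRAMP family transporters were higher in WT, Slc11a1 3.15-fold and Slc11a2 2.44-fold. Slc11a1 had 588 and 605 CPM in WT and 186 and 194 CPM in Unc93b1 3d/3d αMARCO TAMs, and Slc11a2 had 107 and 102 CPM against 43.3 and 42.7 CPM. In each the replicates lay close together and far from the other genotype. The log2 fold changes were 1.66 (SE 0.19, adjusted P = 0.184) and 1.29 (SE 0.17, adjusted P = 0.223), neither called by edgeR in the 4 libraries. There 0 of 15722 genes were called higher and 0 lower (0%), with 1076 genes at an unadjusted p of at most 0.05, and DESeq2 called 195 genes, Slc11a1 (adjusted P = 5.93e-07) and Slc11a2 (adjusted P = 0.00144) among them. Both were also among the 108 genes called by edgeR in a model of all 8 libraries (adjusted P = 0.0147 and 0.021). With either Unc93b1 3d/3d αMARCO library left out, the log2 fold changes were 1.62 and 1.69 for Slc11a1 and 1.30 and 1.27 for Slc11a2. Those fits rest on a single mutant αMARCO library, so no call is read from them. Neither was called with either WT αMARCO library left out, and with the correction for gene length Slc11a1 was called (1.71, adjusted P = 0.0368 from edgeR) but Slc11a2 was not.

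The other members under αMARCO followed no common direction. Slc40a1 was higher in both WT samples, at 34.2 and 47.6 CPM against 16.9 and 21.6 CPM (log2 fold change 1.09, SE 0.26, adjusted P = 0.521 from edgeR), where the control samples had the opposite order. The log2 fold change of Slc40a1 was 0.929 without Unc93b1 3d/3d αMARCO replicate 1 and 1.282 without replicate 2. Hmox1 likewise had the opposite order to the controls, with 1107 and 1208 CPM in WT and 739 and 1004 CPM in Unc93b1 3d/3d αMARCO TAMs (log2 fold change 0.41, SE 0.26, adjusted P = 0.709 from edgeR). Without mutant replicate 2 it was at 0.65, and without mutant replicate 1 it was at 0.212. Trf kept the order of the controls, at 6.22 and 7.41 CPM in WT against 10.1 and 16.3 CPM (log2 fold change -0.94, SE 0.32, adjusted P = 0.697 from edgeR). Its log2 fold change was -1.244 without mutant replicate 1 and -0.563 without mutant replicate 2. Fth1, Ftl1, Tfrc, Blvra and Blvrb overlapped between the genotypes, and the other 5 members did not, against 44.3% of all tested genes without overlap. The median log2 fold change was 0.15 over the members and -0.03 over all tested genes. Summed fibroblast markers were at 38.2 and 24.4 CPM in the WT samples, lower than the 162 and 77.4 CPM of the mutant samples. Pecam1 and the B cell marker sum were higher in the WT samples, as given above. The part of these markers in the values of the members was not tested.

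Whether the αMARCO effect differed between WT and mutant TAMs was tested in a model of all 8 libraries. Slc40a1 had the largest difference among the members, 1.74 on the log2 scale (SE 0.39, unadjusted p = 0.00193, adjusted P = 0.31 from edgeR), with 0.10 in WT and -1.65 in Unc93b1 3d/3d TAMs as the separate effects. Slc11a2 followed with 0.91 (SE 0.24, adjusted P = 0.318) and Hmox1 with 0.80 (SE 0.30, adjusted P = 0.318 from edgeR). In all of these the αMARCO samples lay above or among the controls in WT and below both controls in Unc93b1 3d/3d TAMs. No gene was called in this test (0 of 16620, 0%, where 2549 genes had an unadjusted p up to 0.05). DESeq2 called 200 genes and, of the members, Slc40a1 (adjusted P = 0.00496). Without Unc93b1 3d/3d αMARCO replicate 2, the edgeR difference was 1.02 for Hmox1, 0.88 for Slc11a2, -0.68 for Tfrc, 1.92 for Slc40a1 and 0.17 for Ftl1. Without Unc93b1 3d/3d αMARCO replicate 1 it was 0.59 for Hmox1, 0.915 for Slc11a2, -1.248 for Fth1, -1.109 for Ftl1 and -1.046 for Blvra. Each of these fits rests on a single mutant αMARCO library, so no call is read from them.

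The other genes of iron and heme metabolism were read from lists of 66 genes, of which 56 were tested in control TAMs. Of these, 3 were called higher in WT and 4 lower, against 6.58% and 6.4% of all tested genes. Spic, the transcription factor that red pulp macrophages need, had 43.2 and 65.4 CPM in WT control and 17.7 and 13.2 CPM in Unc93b1 3d/3d control TAMs (log2 fold change 1.80, SE 0.24, adjusted P = 0.0049 from edgeR). It is known to be derepressed by heme and to favour ferroportin expression, and Slc40a1 was at lower values in WT, as given above. Lrp1, a receptor for heme bound to hemopexin among many ligands, had 1110 and 1250 CPM in WT and 2036 and 2094 CPM in the mutant (log2 fold change -0.82, adjusted P = 0.00159 from edgeR). Aco1, which encodes iron regulatory protein 1 in its iron-free form, was higher in WT (0.52, adjusted P = 0.00798), while Mafg (-0.60), a partner of NRF2 and BACH1 at the Hmox1 gene, and the ferritin receptor Scara5 (-0.87) were lower. Outside the 12 genes selected by adjusted P, the ferroxidase gene Cp was also called higher (1.19) and the ferrireductase gene Steap2 lower (-0.78), named here after their values were seen. The call of Spic held in every alternative. With all 8 libraries in one model those of Lrp1 (adjusted P = 0.252), Aco1 (0.0984), Mafg (0.104) and Scara5 (0.4 from edgeR) were lost. That of Mafg was also lost without WT control replicate 1 (log2 fold change -0.476) and that of Aco1 without Unc93b1 3d/3d control replicate 1 (0.462). Scara5 lost its call without WT control replicate 2 (-0.557) and without either mutant control library (adjusted P = 0.0931 and 0.0914 from edgeR). Scara5 had 14.9 and 9.15 CPM in WT control and 21.5 and 22.0 CPM in Unc93b1 3d/3d control TAMs. Summed fibroblast markers were at 107 and 85.0 CPM and at 175 and 151 CPM in the same samples, and their part in the value of Scara5 was not tested.

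In WT TAMs, αMARCO was followed by 4 calls upward and 8 downward among the 56 tested, against 8.91% and 11.8% of all tested genes. Slc25a28 (mitoferrin 2), which carries iron into mitochondria, had 96.4 and 94.5 CPM in control and 158 and 154 CPM after αMARCO (log2 fold change 0.72, SE 0.07, adjusted P = 2e-04 from edgeR). The iron-sulfur cluster assembly genes Hscb (-0.71) and Glrx5 (-0.53) fell, as did the ferredoxin gene Fdx1 (-0.63), which stood outside the 12 and is named after its value was seen. Hmox2, the constitutive heme oxygenase, had 97.8 and 94.8 CPM in control and 59.4 and 57.3 CPM after αMARCO (log2 fold change -0.72, SE 0.08, adjusted P = 0.000249 from edgeR), where Hmox1 was at higher values. The heme synthesis enzyme Cpox (-0.60), the metalloreductase Steap1 (-1.31) and Scara5 (-1.28) fell as well, and Mafg (0.86) and Lrp1 (0.77) rose. Scara5 had 5.20 and 4.63 CPM after αMARCO, in the WT samples with fibroblast marker sums of 38.2 and 24.4 CPM, whose part in its value was not tested. Of the genes named here from the 12, only Mafg was still called in the model of all 8 libraries, where the adjusted P of the others was 0.0749 to 0.442 from edgeR. With the correction for gene length the calls of Hscb (-0.411), Glrx5 (-0.485), Lrp1 (0.49) and Steap1 (adjusted P = 0.0557 from edgeR) were lost, and with DESeq2 that of Steap1 (adjusted P = 0.0872). Glrx5 was not called without WT control replicate 1 (-0.416) or WT αMARCO replicate 2 (-0.468), Hscb without WT αMARCO replicate 1 (adjusted P = 0.0556 from edgeR), Cpox without WT αMARCO replicate 2 (adjusted P = 0.112 from edgeR) and Steap1 without either (adjusted P = 0.105 and 0.115 from edgeR). Mafg, Lrp1 and Aco1 were thus called by edgeR in the separate pairs of groups in opposite directions in the control genotypes and in αMARCO of WT, comparisons that share the WT control libraries.

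The iron regulatory proteins and the ubiquitin ligase subunit that senses iron, whose targets hold the hairpins printed above, were described whatever their call. Aco1 had 67.3 and 65.02 CPM in WT control and 45.6 and 44.9 CPM in WT αMARCO TAMs (log2 fold change -0.54, SE 0.08, adjusted P = 0.0012 from edgeR). Ireb2, which encodes iron regulatory protein 2, had 70.1 and 69.7 CPM against 96.8 and 99.2 CPM, with an adjusted P of 0.0012 from edgeR at a log2 fold change of 0.496, just under the threshold. Fbxl5, through which iron regulatory protein 2 is degraded when iron is plentiful, rose from 150 and 148 CPM to 224 and 210 CPM (0.54, SE 0.08, adjusted P = 0.000902 from edgeR). With all 8 libraries in one model neither Aco1 (adjusted P = 0.0946) nor Fbxl5 (adjusted P = 0.118 from edgeR) was called, and Fbxl5 was not called with the correction for gene length (0.401). In the 4 WT libraries, Aco1 thus fell and Fbxl5 rose at the mRNA level. Among the members that matched the pattern, Fth1, Ftl1 and Slc40a1 overlapped between WT control and WT αMARCO, and Tfrc was 0.28 lower on the log2 scale. Slc11a2 was called higher there (0.53). It had no match to the pattern, but the search would miss a hairpin of another form and does not show that its mRNA lacks one. In Unc93b1 3d/3d TAMs the αMARCO values were -0.14, 0.21 and -0.01 for Aco1, Ireb2 and Fbxl5, and none of the 57 other iron and heme genes tested was called there, nor of the 58 tested between the genotypes under αMARCO.

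**Figure D4:**
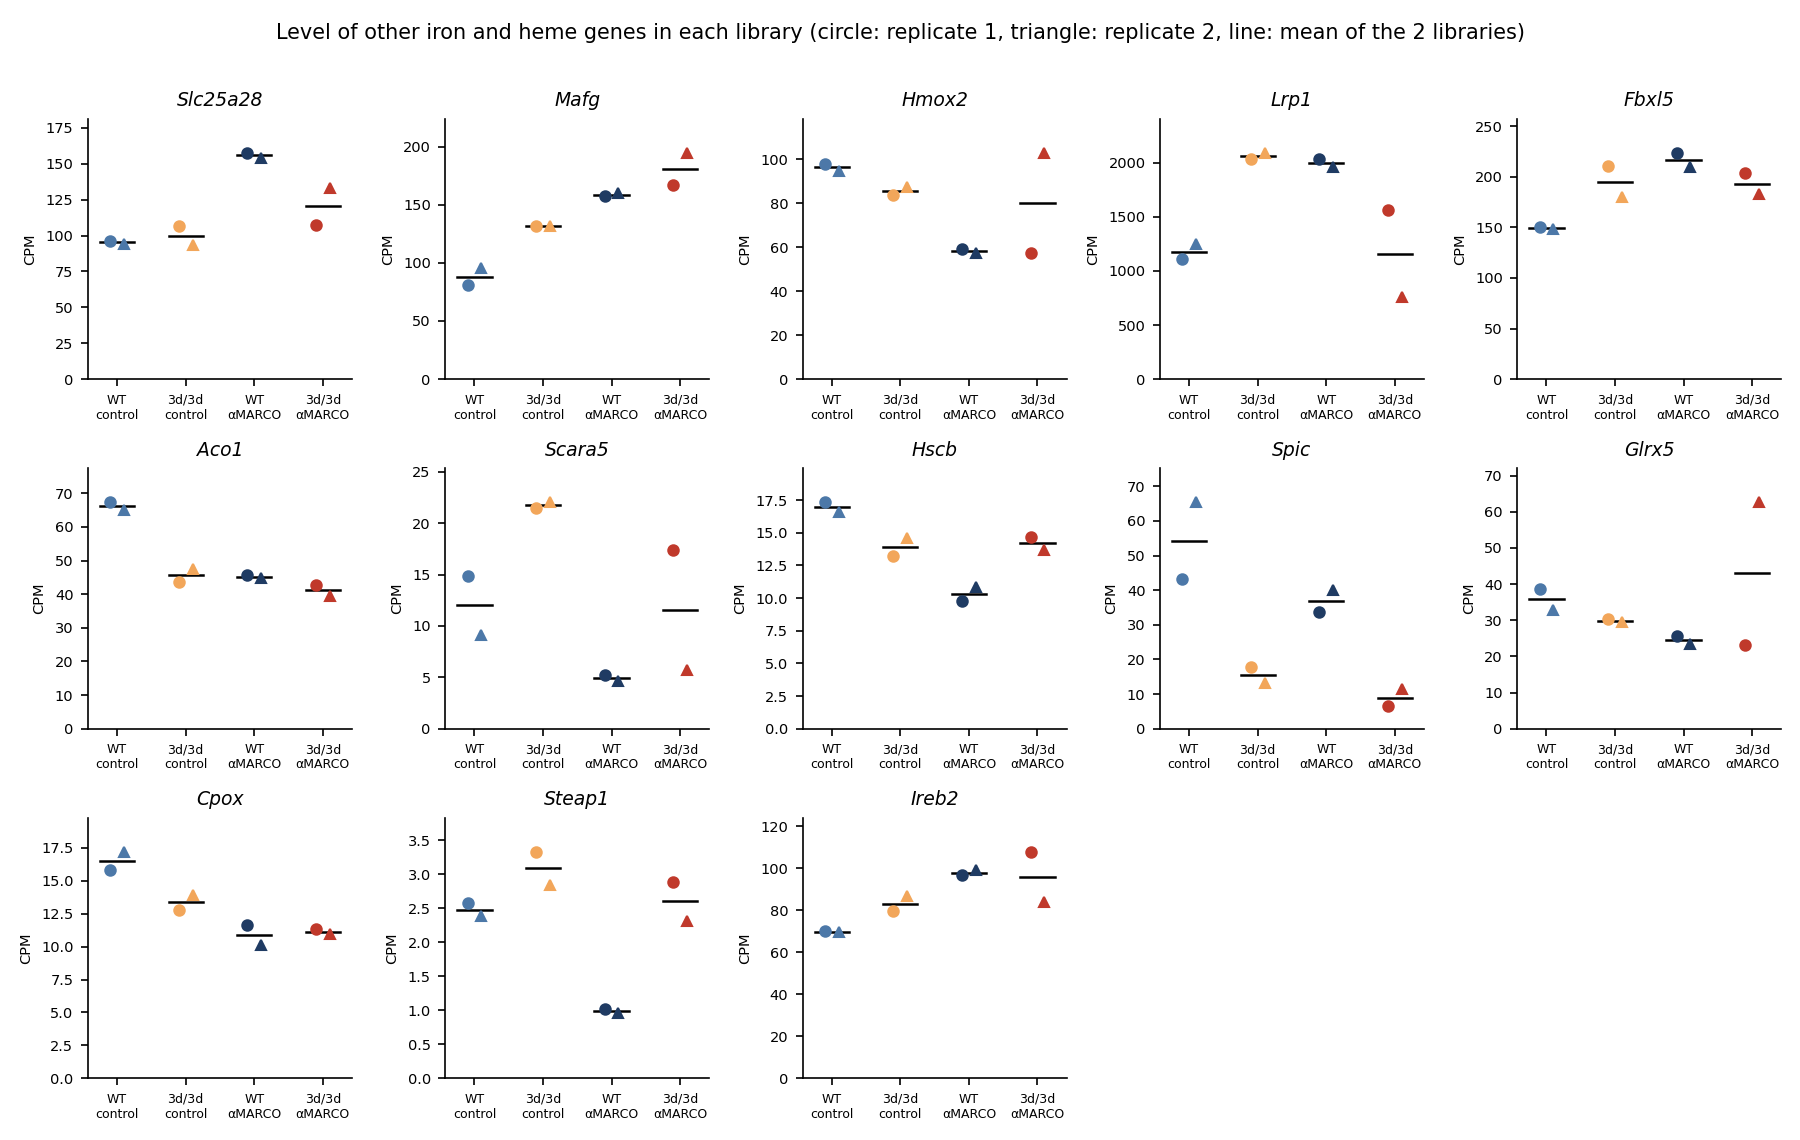
Level in CPM (y axis, from 0) of the 12 other iron and heme genes selected by adjusted P, and of Ireb2, in each library of the 4 groups, with circles for replicate 1, triangles for replicate 2 and lines at the mean of the 2 libraries. Spic lies at 33.6 to 65.4 CPM in WT and at 6.60 to 17.7 CPM in Unc93b1 3d/3d TAMs, and Aco1 is highest in WT control TAMs.

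Likeness to other genes was measured by Pearson's r of log2 CPM over the 8 libraries, among genes with a mean of at least 10 CPM, as a description only, since the libraries share groups and depth. The genes most like Hmox1 were Mfsd11 (0.95), Por (0.94) and Srxn1 (0.93). Por encodes the reductase that supplies electrons to heme oxygenase, and Srxn1 encodes sulfiredoxin. Nrp1 (0.96), L3mbtl3 (0.94) and Cd38 (0.94) were most like Slc40a1, Bcl2l1 (0.99), 2010111I01Rik (0.97) and Gorab (0.97) most like Trf, and Cxcl1 (0.94), Casp2 (0.93) and Plcg2 (0.93) most like Tfrc.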

How the data were processed

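TAM mRNA was selected with poly-T beads and sequenced in 8 libraries. Per the submitters' processing notes, reads were processed with fastp, HISAT2 2.0.5 and featureCounts 1.5.0, with GRCm38 and DESeq2 1.40.2 also named. Strandedness was not given in the sources used here, so reads of Ftl1 and Slc11a2 cannot be told apart from those of the opposite-strand genes Gm10252 and Gm5475, which held at most 65 and 24 counts. The authors deposited 3 tables with raw counts per gene, which alone were used. The deposited normalized signal (counts over DESeq2 size factors), FPKM, log2 fold changes and p-values of the authors' own comparisons were not used. The tables were joined by gene identifier. Of 95230 counts held in 2 tables, 0 differed, and a gene missing from a table was set to 0 counts (such genes had at most 1 count where this could be checked). Gene positions are those of the tables, 95.5% of them identical with GENCODE M21.

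Each pair of groups was tested over all genes in R 4.3.3 with edgeR 4.0.16 (TMM, filterByExpr, robust quasi-likelihood test, Benjamini-Hochberg), and the difference of effects over all 8 libraries. Genes were called at an adjusted P up to 0.05 with a log2 fold change of 0.5 or more in size. CPM uses TMM factors over 8 libraries, without a pseudocount. The correlations used a prior count of 2. The procedure was tested on simulated data with the same spread for all genes and libraries and no trend by gene length. That test therefore does not cover the spread of the Unc93b1 3d/3d αMARCO pair. All 10 members were described, and of the other lists the 12 called genes with the lowest adjusted P, with Aco1, Ireb2 and Fbxl5. The members and lists were chosen with earlier results of these data known. Alternatives were DESeq2 1.42.0, DESeq2 size factors, no filter, all libraries in 1 model, a replicate block, thresholds of 1 and 0, and each library left out. A library left out leaves its group with a single library, assumed to vary like the others. No call gained in such a fit is read. A correction for gene length, and the single model without Unc93b1 3d/3d αMARCO replicate 2, were chosen after seeing the data.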

Additional observations from a re-analysis of the deposited data

How the results depend on the processing

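With 2 libraries a group, 1 library decided many calls. Counts with a library left out rest on a single library in 1 group and show only how far the calls depend on it. Of the members, 3 were called between control genotypes, and 5 with DESeq2 or without the filter, 1 in the model of all 8 libraries, and 2 to 5 with a library left out. That model called 364 genes in place of 2025, a fold threshold of 1 called 951, and without Unc93b1 3d/3d αMARCO replicate 2 the model called 2450. For αMARCO in WT the 2 members called became 1 with DESeq2, 0 in the 8-library model, 1 in that model without Unc93b1 3d/3d αMARCO replicate 2, 0 and 4 at fold thresholds of 1 and 0, and 0 to 3 with a library left out. Here 3236 genes were called, 164 in the 8-library model, 1366 and 5487 at the other thresholds, and 1940 to 3951 with a library left out. For αMARCO in Unc93b1 3d/3d the 0 genes became 52 with DESeq2, 174 without the filter, 1 in the 8-library model, 1 with the length correction and 1 to 5500 with a library left out. The members called there were 1 with DESeq2 and 1 without the filter (Slc40a1), and 0 to 5. For the genotypes under αMARCO the 0 genes became 195, 107, 108 and 22 in the same order, and 17 to 6366, with 2, 2, 2 and 1 members, and 0 to 7. For the difference of effects the 0 genes became 200 with DESeq2, 152 without the filter, 4 with the length correction and 0 to 6440, with 1 member with DESeq2, 1 without the filter and 0 to 5 otherwise. The causes were not tested.

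Some log2 fold changes reversed, among them values over the fold threshold in size though not called (Fth1 at 0.63 and Ftl1 at 0.61 for αMARCO in Unc93b1 3d/3d, and Ftl1 at -0.60 in the difference of effects). In αMARCO of WT, Ftl1 was -0.004 without the filter, and -0.005 and -0.022 in the models with and without Unc93b1 3d/3d αMARCO replicate 2, while Slc40a1 was -0.03 and Fth1 0.166 with the length correction. With a library left out, Slc40a1 ran from -0.244 to 0.525, Fth1 from -0.278 to 0.011, Ftl1 from -0.139 to 0.146 and Slc11a1 from -0.097 to 0.443. In αMARCO of Unc93b1 3d/3d, Blvrb was -0.01 with DESeq2, -0.015 with its size factors, -0.008 in the 8-library model and -0.186 with the length correction. With a library left out, Blvrb ran from -0.661 to 0.458, Tfrc from -0.149 to 0.383, Fth1 from -0.123 to 1.119, Ftl1 from -0.186 to 1.117 and Blvra from -0.247 to 0.611. Between the genotypes under αMARCO, Ftl1 was 0.017 with the length correction, and with a library left out Tfrc ran from -0.142 to 0.407, Blvrb from -0.249 to 0.852, Fth1 from -0.975 to 0.251, Ftl1 from -0.868 to 0.417 and Blvra from -0.61 to 0.23. In the difference of effects, Ftl1 ran from -1.109 to 0.17 and Blvrb from -0.767 to 0.328. In every comparison with the mutant αMARCO samples, an end of each range came from leaving out 1 of those 2 libraries.

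Replicate numbers were no sign of pairing, with only 2 pairs a comparison and correlations of same-numbered deviations of 0.01, -0.001, 0.111 and 0.135 over 16620 genes. The replicate block gave 5 genes called for αMARCO in Unc93b1 3d/3d, with Blvrb at -0.091, called Slc40a1 between control genotypes (-0.708, adjusted P = 0.0267 from edgeR), and 97 genes with 2 members between the genotypes under αMARCO.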
